A study of Coffea canephora with 12 samples.

Results

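The comparison described here set leaves of *Coffea canephora* plantlets sampled at 9 days before induction (9 dbi) against leaves sampled at 14 days before induction (14 dbi). The 9 dbi plantlets had spent 5 days on MS salts with 1-naphthaleneacetic acid (NAA, a synthetic auxin; abbreviated ANA in the labels) and kinetin (KIN, a cytokinin). The 14 dbi plantlets were the control of the series and had grown on MS salts with no growth regulators. In both groups the plantlets were intact Robusta coffee grown in vitro, before any explant was cut. Each group had 2 of the 12 RNA-seq libraries of the series, chosen by their titles, and all 25574 genes of the count files were described. The other 8 libraries came from the day of induction (0 dbi) and from later points counted in days after it (1, 2 and 21 dai). They entered the choice of genes tested, the scaling, the common estimate of the spread, the grouping of genes by level and a few side values. With all libraries 20745 genes were tested, against 18603 with only the 4 compared. The series' design text calls the 2 libraries of a time point technical sequencing replicates of 1 biological sample, so every p-value below measures the spread between libraries and not that between plants. The medium and the age of the plantlets changed together, and they cannot be told apart.

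Somatic embryogenesis is the formation of embryos from body cells, here leaf cells, without fertilization. In coffee, plantlets are first kept on an auxin and a cytokinin, and leaf explants are then moved to the induction medium. Auxin acts as a signal within minutes to hours by releasing the repression of target genes, and among its known early targets are the *AUX/IAA*, *SAUR* and *GH3* families. GH3 enzymes link auxin or jasmonic acid to amino acids, which removes free auxin or makes the active jasmonate. Cytokinin acts through a chain of phosphate transfers and is known for promoting cell division and delaying leaf senescence.

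The main result was that fewer genes had reads at 9 dbi and more genes had lower than higher counts there, mostly among genes with few reads. The 9 dbi files held few of the low counts seen at 14 dbi, and whether a step of the processing removed them was not tested, so a count of 0 at 9 dbi is not read here as an absent transcript. Of the 25574 genes, 16011 had reads in all 4 libraries. A further 1885 genes had no read in either 9 dbi library and at least 1 read in both 14 dbi libraries, while only 14 genes showed the opposite pattern. Of the 20745 genes tested with edgeR's quasi-likelihood test, 7 were called higher and 104 lower at 9 dbi at an adjusted p under 0.05, which is 0.0337% and 0.501% of the genes tested, or 0.535% in all. None of the 18 *CcGH3* genes was called.

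The number of calls moved widely with the settings. All 111 called genes kept the sign of their fold change in each of the 22 alternative settings in which they were tested. This could hardly come out otherwise, since the settings reused the same counts. Both 9 dbi libraries lay below both 14 dbi libraries in all 104 lower genes, and above them in all 7 higher genes. Over all genes tested, 26.5% lay below and 14.7% above. The calls were made on the same libraries, so the separation of the called genes was close to fixed in advance. The count itself was 1579 with DESeq2, 17 once low mapping quality entered the model, and 0 when only the 4 libraries compared were fitted, where 1743 genes had an unadjusted p under 0.05. Leaving out a single library gave 0 to 686 calls. Without replicate 1 of 14 dbi 7 genes were called, without replicate 2 of 14 dbi 360, without replicate 1 of 9 dbi 686 and without replicate 2 of 9 dbi 43. Of the 111 genes, 17 were called in at least 11 of the 22 settings, 1 higher (Cc05_g05700) and 16 lower.

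The depth of the 9 dbi libraries lay between those of the 14 dbi libraries, with 20538411 and 22380127 reads in genes at 9 dbi, against 15209282 and 26414332 at 14 dbi. The number of genes with at least 1 read was nevertheless lower at 9 dbi, at 17809 and 17204 genes, against 20565 and 21704 at 14 dbi. Had every library held 15209282 reads, the expected numbers would have been 17745 and 17093 genes at 9 dbi, against 20565 and 21299 at 14 dbi. The difference in detection was therefore as large at equal depth. Among the other 8 libraries the 2 of 1 dai were the next lowest, with 19116 and 18199 genes, and the rest had 19833 to 22257. Reads of low mapping quality made up 11.4% and 12.0% of the reads at 9 dbi, against 18.3% and 11.2% at 14 dbi, so that replicate 1 of 14 dbi stood apart from the other 3 libraries. The gene IDs are not paired with descriptions in the sources used here, and the leaf label could not be checked against leaf marker genes.

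What was missing at 9 dbi was the low end of the count distribution. Genes with 1 to 10 reads numbered 619 and 669 in the 9 dbi libraries, or 3.48% and 3.89% of the genes detected, against 2748 and 2637 in the 14 dbi libraries, or 13.4% and 12.1%. At equal depth these shares were 3.81% and 3.92% at 9 dbi, against 13.4% and 14.3% at 14 dbi. The tenth percentile of reads per detected gene was 38 and 49 reads at 9 dbi, against 6 and 7 at 14 dbi. In the 4 doubling classes from 64 reads upwards the 9 dbi libraries held about as many genes as replicate 2 of 14 dbi, as the plot of genes by number of reads shows.

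**Figure D1:**
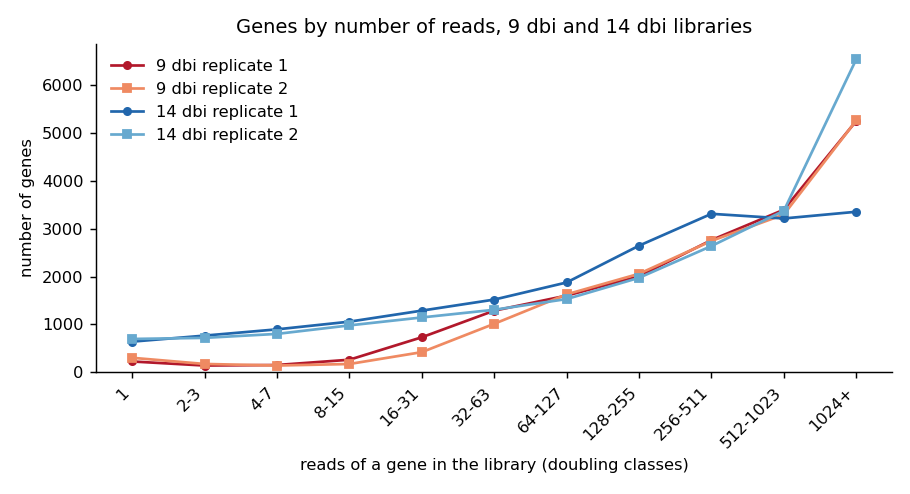
Number of genes (y axis) in each class of reads per gene (x axis, classes that double in width) for the 2 libraries of 9 dbi (red) and the 2 of 14 dbi (blue). In the class of 4 to 7 reads the 9 dbi libraries held 149 and 138 genes and the 14 dbi libraries 895 and 800.

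The share of genes without a read at 9 dbi was highest for the genes with the lowest level at 14 dbi and under 1% above 20 CPM. Levels are given in CPM, counts scaled by edgeR's TMM library sizes so that genes can be compared between libraries. Of the 1029 genes at 0.5 to 1 CPM at 14 dbi, 55.1% and 62.6% had no read in the 9 dbi libraries, and 38.9% had none in either. Of the 2024 genes at 2 to 5 CPM, 19.8% and 28.1% had no read, and 8.40% had none in either. In the classes above 20 CPM at most 0.627% of the genes lacked a read in a 9 dbi library, and 8, 3 and 1 genes lacked reads in both. In the mirrored view, of the 710 genes at 0.5 to 1 CPM at 9 dbi, 3.24% lacked reads in both 14 dbi libraries. The 0 dbi libraries, also from plantlets on NAA and KIN, lacked reads for 18.7% and 0.875% of the same 1029 genes.

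**Figure D2:**
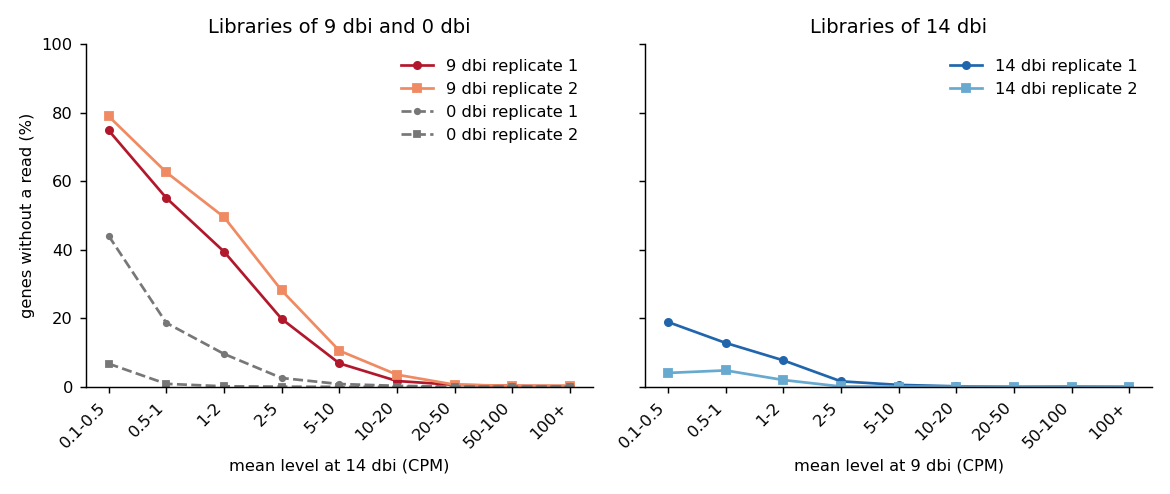
Percentage of genes without a read (y axis) by mean level in the other time point (x axis, CPM classes). On the left, genes are classed by their level at 14 dbi and lines show the 9 dbi libraries (red) and the 0 dbi libraries (grey, dashed). On the right, genes are classed by their level at 9 dbi and lines show the 14 dbi libraries (blue). The 9 dbi lines start at 74.8% and 78.9% in the class of 0.1 to 0.5 CPM, the 14 dbi lines at 18.9% and 4.05%.

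The 2 libraries of 9 dbi also disagreed with each other about which genes were present. At 9 dbi, 16121 genes had reads in both libraries and 2771 in only 1 of them, which was 14.7% of the genes detected. At 14 dbi, 20249 genes had reads in both libraries and 1771 in only 1, which was 8.04%. The genes seen in only 1 library were of another kind at 9 dbi. They had a median of 44 reads in the library that had any, and 1259 of them had 50 reads or more, whereas the corresponding genes at 14 dbi had a median of 2 reads and 37 had 50 or more. As an extreme case, chosen after its values were seen, Cc05_g10290 had 0 and 1115 reads at 9 dbi, against 1 and 6 reads at 14 dbi. Another, Cc02_g05420, had 0 and 974 reads at 9 dbi, against 9156 and 2775 at 14 dbi. A count of 0 at 9 dbi thus did not bound the level as tightly as counting error alone would, since the other library of the same sample often held many reads, and the fold bounds given below cover counting error only. The 1 dai libraries shared this trait in part, with a median of 18 reads among 2129 genes seen in only 1 of them. At the remaining time points the median was 2 to 4 reads.

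Most of these genes were expressed at 14 dbi. Of the 2771 genes seen in 1 library of 9 dbi, 2353 had reads in both 14 dbi libraries. For these 2353 genes the median was 2.26 CPM in the 9 dbi library with reads, against 1.69 CPM over the 14 dbi libraries. In that library 1114 of them (47.3%) lay above both 14 dbi libraries. Taking the library with reads picks the higher value of each gene, so this level is raised by construction. When both 9 dbi libraries were averaged, the median was 1.13 CPM, and 827 genes (35.1%) lay above their 14 dbi mean. Of these 2353 genes, 9 were called lower and 0 higher by edgeR.

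The 9 dbi libraries were nearer to each other than to replicate 1 of 14 dbi, and no nearer to each other than to replicate 2 of 14 dbi. Across the 20745 genes tested, Pearson's r of log2(CPM + 1) was 0.89 between the 9 dbi libraries and 0.92 between the 14 dbi libraries. Between the groups it was 0.92 for replicate 1 of 9 dbi with replicate 2 of 14 dbi, 0.91 for replicate 2 with replicate 2, and 0.86 and 0.85 for the 9 dbi replicates 1 and 2 with replicate 1 of 14 dbi. These are correlations across genes, which are not independent replicates, and they are given as a description. Over the 15099 genes with at least 10 reads in all 4 libraries, the median absolute log2 difference between libraries was 0.56 within 9 dbi and 0.50 within 14 dbi. It was 0.48 and 0.54 for the 9 dbi replicates 1 and 2 against replicate 2 of 14 dbi, and 0.64 and 0.68 against replicate 1 of 14 dbi. Counts of the 2 libraries also differed by far more than sampling noise, with a chi-square per degree of freedom of 196 at 9 dbi and 204 at 14 dbi.

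Over all genes tested, the median log2 fold change of 9 dbi over 14 dbi was −0.12, and 66.7% of the genes lay within a factor of 2 (a log2 change under 1 in size). Both 9 dbi libraries lay above both 14 dbi libraries for 3056 genes (14.7%), and below both for 5501 genes (26.5%). At an unadjusted p under 0.05 there were 3309 genes (16%), of which 682 were higher and 2627 lower. The excess of lower genes depended on level. When the genes were divided by mean level over all libraries into 3 equal groups, the median log2 fold change was −0.66 in the lowest group, with 34.4% of genes below and 8.68% above. In the highest group it was −0.03, with 23.1% below and 19.6% above. At an unadjusted p under 0.05 by edgeR, the highest group still had 582 lower and 366 higher genes. Among the 15099 genes with at least 10 reads in each of the 4 libraries, the median was −0.02, and 21.1% lay below and 18.6% above. This filter drops genes by their own 9 dbi counts, all lost genes among them, so part of that balance follows from the choice.

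The genes called lower held the losses of detection in part. Of the 104 genes, 56 had no read in either 9 dbi library, 9 had none in 1 of them and 39 had reads in both. Calls were made for 2.57% of the 2175 tested genes with no read at 9 dbi, for 0.361% of the 2493 with reads in 1 library, and for 0.286% of the 16077 with reads in both. These classes were set by the same 9 dbi counts that the test used, and genes with no read could be called only lower. The shares are therefore a description and not a result about the losses. The 56 genes without a read had a median level of 3.21 CPM at 14 dbi (range 0.833 to 47.0), and with a floor of 3 counts over both 9 dbi libraries the median of their bounds was at least 43.1-fold lower (54.9-fold against replicate 1 of 14 dbi alone, 29.8-fold against replicate 2 alone). The 39 genes with reads had a median of 88.4 CPM at 14 dbi and a median log2 fold change of −3.46. Over all 104 genes the median log2 fold change was −7.84 as fitted, and −4.84 when genes without reads are put at this bound. When the test was restricted to genes with at least 10 reads in all 4 libraries, 3 were called higher and 17 lower, and 841 were higher and 1026 lower at an unadjusted p under 0.05. The restriction itself drops genes by their 9 dbi counts. How far the lower detection at 9 dbi accounts for the 56 losses was not tested. In bulk tissue, fewer cells of a type and less RNA per cell cannot be told apart.

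**Figure D3:**
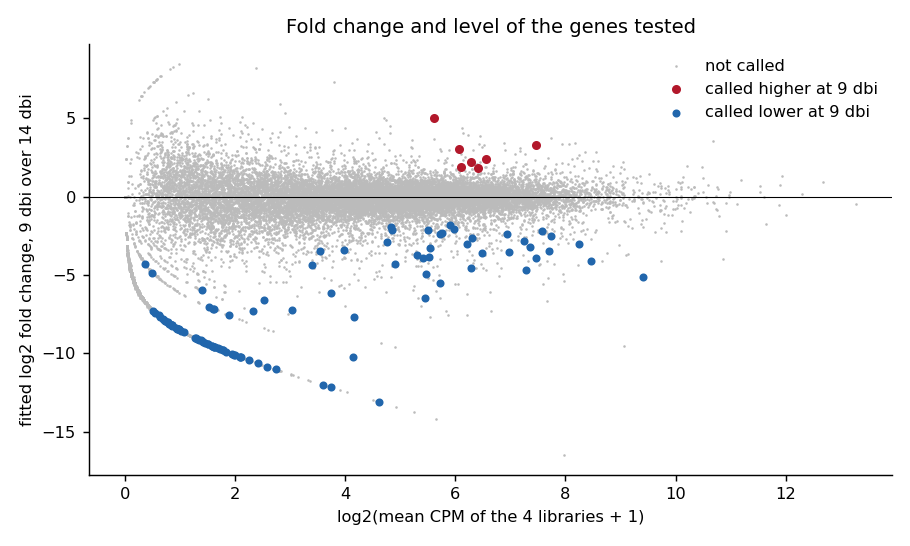
Fitted log2 fold change of 9 dbi over 14 dbi (y axis) by log2(mean CPM of the 4 libraries + 1) (x axis) for the 20745 genes tested, with the 7 genes called higher (red) and the 104 called lower (blue). The arc at the lower left is made of genes without a read at 9 dbi, whose fitted fold change depends on the prior count, and 56 of the blue points lie on it.

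Genes with reads in every library were also among those called lower. The 8 genes described next were picked after the data were seen, as the called lower genes of smallest adjusted p with at least 10 reads in both 9 dbi libraries. Both 9 dbi libraries also had to lie below both 14 dbi libraries, so the lack of overlap follows from the choice. No source used here gives their function. Cc08_g15400 had 477 and 383 reads at 9 dbi, against 3483 and 5634 at 14 dbi, a log2 fold change of −3.54 ± 0.33 (SE, edgeR adjusted p = 0.0119). Its level averaged 19.6 ± 2.87 CPM at 9 dbi and 228 ± 35.6 CPM at 14 dbi (SD, n = 2 each), and it was called in 17 of the 22 alternative settings, more than any other gene. The other 7 were called in 11 to 14 of them. Cc02_g18650 had 142 and 110 reads at 9 dbi, against 1283 and 2047 at 14 dbi, which is a log2 fold change of −3.87 ± 0.45. In both genes the gap between the groups was larger than the distance between replicates.

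In Cc02_g06260, 351 and 231 reads were counted at 9 dbi, against 3083 and 2785 at 14 dbi (log2 fold change −3.62 ± 0.44). Cc06_g01600 had 885 and 750 reads at 9 dbi, against 4604 and 5454 at 14 dbi (−2.84 ± 0.37). Cc06_g02060 had 1697 and 1112 reads at 9 dbi, against 5004 and 9847 at 14 dbi (−2.49 ± 0.33). These 3 genes kept 10.6 to 76.9 CPM at 9 dbi, well above the detection limit. Cc01_g07550 had fewer reads, with 42 and 36 at 9 dbi, against 304 and 458 at 14 dbi (−3.44 ± 0.43). The last 2, Cc04_g14520 and Cc08_g15910, had the widest spread at 14 dbi. Cc04_g14520 stood at 5.21 and 7.33 CPM at 9 dbi, against 222 and 71.4 CPM at 14 dbi. Cc08_g15910 stood at 17.3 and 27 CPM at 9 dbi, against 476 and 184 CPM at 14 dbi. In all 8 genes replicate 1 of 14 dbi, the library with many reads of low mapping quality, was the higher one in CPM. The same held for 84 of the 104 genes called lower, against 45.9% of the genes tested, and the part of this library in the calls was not tested beyond leaving it out.

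The 7 genes called higher were all well detected on both sides, and each was called in 5 to 15 of the 22 alternative settings. Cc05_g05700 changed most, with 1115 and 2969 reads at 9 dbi, against 40 and 79 at 14 dbi, or 50.5 and 136 CPM against 2.91 and 2.85 CPM. Its log2 fold change was 5.01 ± 0.63 (edgeR adjusted p = 0.0287). The 2 libraries of 14 dbi were nearly equal, those of 9 dbi were not, and the lower of them was still far above 14 dbi. Cc01_g17230 had the most reads of the 7, with 274 and 361 CPM at 9 dbi, against 29.6 and 34.9 CPM at 14 dbi (log2 fold change 3.3 ± 0.54). Cc10_g02660 had 99.6 and 136 CPM at 9 dbi, against 12.7 and 16 CPM at 14 dbi (3.03 ± 0.45). In both of these genes the libraries of a group lay close together compared with the distance between the groups.

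The other 4 genes changed less. Cc03_g02590 had 143 and 170 CPM at 9 dbi, against 43.8 and 15.5 CPM at 14 dbi (log2 fold change 2.40 ± 0.44). Cc02_g18540 had 91.9 and 120 CPM at 9 dbi, against 33.5 and 24.4 CPM at 14 dbi (1.87 ± 0.34), and Cc02_g21430 had 144 and 120 CPM against 37.5 and 36.9 CPM (1.83 ± 0.33). Cc07_g03470 had 109 and 143 CPM at 9 dbi, against 24.2 and 30.7 CPM at 14 dbi (2.20 ± 0.34). Its neighbour in the annotation, Cc07_g03480, was called in the opposite direction, with 42.9 and 25.9 CPM at 9 dbi, against 484 and 276 CPM at 14 dbi (−3.46 ± 0.54). This was the only pair of adjacent genes among the 111 that were both called. The strand setting of the counting is not known here, and without strand the reads of overlapping neighbours cannot be told apart.

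**Figure D4:**
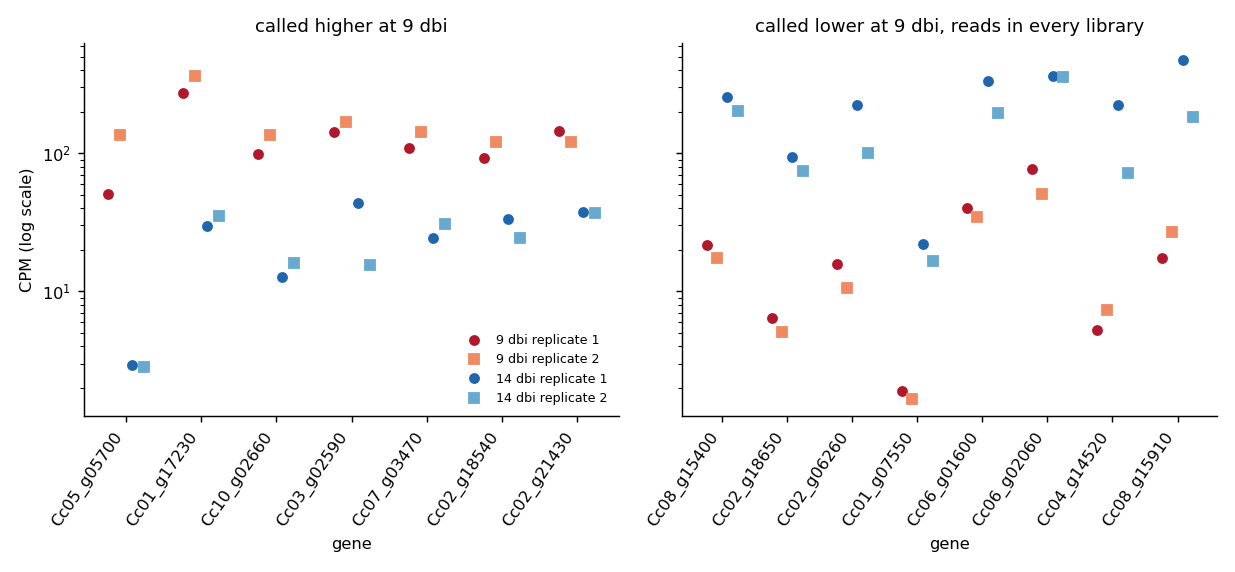
Level of each gene (y axis, CPM on a log scale) in the 2 libraries of 9 dbi (red) and the 2 of 14 dbi (blue), for the 7 genes called higher (left) and for 8 genes called lower that had at least 10 reads in both 9 dbi libraries (right). The genes shown were chosen so that both 9 dbi libraries lie on the same side of both 14 dbi libraries. Cc05_g05700 has the widest gap on the left.

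The 15 called lower genes with the largest fitted change were nearly all genes without reads at 9 dbi. Cc06_g06630 had 0 and 0 reads at 9 dbi, against 964 and 660 at 14 dbi, and was at least 574-fold lower (edgeR adjusted p = 0.0119), or at least 349-fold against replicate 2 of 14 dbi alone. Cc08_g16530 had 0 and 0 reads at 9 dbi, against 112 and 132 at 14 dbi (at least 86.2-fold lower), and Cc11_g06640 had 0 and 0 reads, against 102 and 161 (at least 92.9-fold lower). Scaled to CPM, the 14 dbi libraries stood at 70.2 and 23.8, at 8.16 and 4.76, and at 7.43 and 5.81 for these 3 genes, and their calls recurred in 16, 16 and 12 of the 21 alternative settings in which each could be tested. At 0 dbi they had reads again, with 62 and 270, 123 and 224, and 48 and 228 reads. Cc03_g01760 and Cc02_g27300 had no read at 9 dbi, against 651 and 52 reads and 532 and 149 reads at 14 dbi, where replicate 1 was the higher library in both. Cc03_g01980 was the only one of the 15 with a read at 9 dbi, with 0 and 1 reads, against 871 and 81 at 14 dbi. The remaining 9 genes were Cc11_g08860, Cc06_g06330, Cc11_g16640, Cc02_g27420, Cc05_g07050, Cc08_g12530, Cc01_g10230, Cc04_g12020 and Cc02_g04520, each with no read at 9 dbi and at least 70.6-fold lower. Against replicate 1 of 14 dbi alone their bounds ran from 40.5-fold to 298-fold, and against replicate 2 alone from 22.7-fold (Cc02_g27420) to 132-fold. Cc11_g08860 was at least 120-fold lower against both libraries and at least 32.2-fold against replicate 2 alone, and Cc02_g27420 had 13.5 and 1.55 CPM at 14 dbi.

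The losses as a whole carried little RNA. The 1885 lost genes held 0.391% and 0.163% of the reads at 14 dbi, with a median level of 0.489 CPM there, and 70.8% of them lay under 1 CPM. At least 10 reads in both 14 dbi libraries were seen for 569 of them, and at least 100 in both for 13. At equal depth the expected number of losses was 1806. By edgeR, 56 of the 1502 lost genes that were tested were called. The lost genes with the highest level at 14 dbi were uneven between its libraries. Cc10_g06840 had no read at 9 dbi, against 13483 and 388 reads at 14 dbi. Cc09_g08540, Cc01_g07530 and Cc09_g01950 had none at 9 dbi either, against 2681 and 48, 1985 and 112, and 1571 and 65 reads at 14 dbi. None of these 4 was called (edgeR adjusted p = 0.0636, 0.127, 0.0506 and 0.123), and in each the higher value was that of replicate 1 of 14 dbi.

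The 14 gained genes had low levels at 9 dbi, where their mean over both libraries had a median of 0.0685 CPM and was at most 1.04 CPM. The highest were Cc01_g01080 with 45 and 1 reads, Cc00_g22360 with 14 and 15, Cc00_g33480 with 1 and 19, Cc08_g02740 with 3 and 5, and Cc02_g31220 with 1 and 3 reads at 9 dbi, against none at 14 dbi. Cc00_g22360 was the only gained gene with at least 10 reads in both libraries, at least 9.12-fold higher, and it was not called (edgeR adjusted p = 0.254).

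Most lost genes were detected in each library of 0 dbi, 2 dai and 21 dai, but not in both libraries of 1 dai. Of the 1885, the libraries of 0 dbi detected 66.4% and 95%, those of 1 dai 51.1% and 39.4%, those of 2 dai 82.6% and 93.5%, and those of 21 dai 73.0% and 92.5%. Of all 25574 genes these libraries detected 18199 to 22257, and no set of genes of like level was compared. The 104 genes called lower had a median level of 7.17 and 3.83 CPM at 14 dbi, 0 and 0 CPM at 9 dbi, and 4.96 and 7.03 CPM at 0 dbi. After induction it was 14.0 and 14.8 CPM on day 1, 15.3 and 13.4 CPM on day 2 and 30.2 and 30.1 CPM on day 21. The 7 genes called higher had a median of 29.6 and 24.4 CPM at 14 dbi, 109 and 136 CPM at 9 dbi, and 56.6 and 77.5 CPM at 0 dbi. Their median was 58.6 and 53.5 CPM on day 1 after induction, 50.5 and 36.3 CPM on day 2 and 42.2 and 33.8 CPM on day 21. The called sets were chosen by the contrast of 9 and 14 dbi, so 9 dbi had to stand out. The other libraries entered the filter, the scaling and the spread behind the calls, so their levels are not free of the choice. They are given as a description.

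The *CcGH3* genes were the only family that the sources used here tie to gene IDs. Of the 18, 17 were tested and none was called, against 0.535% of all genes tested. The fitted log2 fold change was above 0 for 7 and below 0 for 10, with a median of −0.16, beside −0.12 over all genes, and it ran from −3.57 to 2.48. Both 9 dbi libraries lay above both 14 dbi libraries for 3 genes and below both for 1, and the groups overlapped for 13 of the 17. Over all genes tested, 14.7% lay above and 26.5% below. The median SE was 1.06 on the log2 scale, so that a change of 2-fold in a typical member was within the error. The smallest adjusted p by edgeR was 0.20.

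*CcGH3.5*, the homolog of the *Arabidopsis* jasmonate-conjugating enzyme JAR1, had the most reads of the family at 9 dbi. It had 2869 and 2292 reads at 9 dbi, against 1077 and 716 at 14 dbi, or 130 and 105 CPM against 78.4 and 25.8 CPM. The groups did not overlap, but the log2 fold change of 1.17 ± 0.71 did not pass the test (edgeR adjusted p = 0.477). *CcGH3.17a* and *CcGH3.17b*, copies of the gene whose *Arabidopsis* relative conjugates auxin, were the other 2 with both 9 dbi libraries above. *CcGH3.17a* had 5.25 and 7.88 CPM at 9 dbi, against 0.510 and 1.80 CPM at 14 dbi (log2 fold change 2.48 ± 1.23), and *CcGH3.17b* had 1.13 and 1.92 CPM against 0.0728 and 0.902 CPM (1.60 ± 2.22). *CcGH3.17c* was the only one below, with 6.75 and 2.34 CPM at 9 dbi, against 12.5 and 19.6 CPM at 14 dbi (−1.82 ± 0.63, unadjusted p = 0.0157 and adjusted p = 0.20 by edgeR). How reads that match more than 1 of these near copies were handled is not known here, so their single values are uncertain.

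In several auxin-conjugating members the difference between replicates was larger than that between the groups. *CcGH3.3* had 15.7 and 0.458 CPM at 9 dbi, against 17.2 and 0.866 CPM at 14 dbi, with replicate 1 high and replicate 2 low on both sides. Its neighbour *CcGH3.1d* behaved alike, with 9.06 and 0 CPM at 9 dbi, against 27 and 1.08 CPM at 14 dbi. Both gene models are short, with spans of 862 bp (*CcGH3.3*) and 1367 bp (*CcGH3.1d*), and whether they are separate genes was not tested. At 0 dbi the order of the replicates was the same, with 10.9 and 0.646 CPM for *CcGH3.3* and 7.40 and 0.380 CPM for *CcGH3.1d*. It was not the same at every later point, since on day 2 after induction *CcGH3.3* had 4.81 and 6.33 CPM and *CcGH3.1d* 2.77 and 5.94 CPM, and *CcGH3.1d* had 1.33 and 1.95 CPM on day 1. *CcGH3.9* had 1.81 and 0 CPM at 9 dbi, against 20.2 and 1.55 CPM at 14 dbi, with the lowest fitted log2 fold change of the family (−3.57 ± 1.80, edgeR adjusted p = 0.374). *CcGH3.1b* went the other way within its groups, with 3.08 and 18.2 CPM at 9 dbi, against 5.97 and 0.541 CPM at 14 dbi.

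Of the remaining members *CcGH3.17i* varied least, with 46.6 and 47.7 CPM at 9 dbi, against 42.9 and 48.2 CPM at 14 dbi (log2 fold change 0.05 ± 0.32). *CcGH3.17e* had 31.2 and 46.3 CPM at 9 dbi, against 32.8 and 50.5 CPM at 14 dbi. *CcGH3.6b* had 15.5 and 9.11 CPM at 9 dbi, against 17.8 and 6.17 CPM at 14 dbi. *CcGH3.1c* (3.31 and 8.20 CPM at 9 dbi, against 26.7 and 7.94 CPM at 14 dbi) and *CcGH3.17d*, *CcGH3.17f*, *CcGH3.17g* and *CcGH3.17h* (0.544 to 11.1 CPM at 9 dbi, against 3.13 to 17.3 CPM at 14 dbi) overlapped between the groups. *CcGH3.1a* had 22 and 15 reads at 9 dbi, against 24 and 7 at 14 dbi. *CcGH3.6a* had no read at 9 dbi, against 0 and 1 at 14 dbi, and was not tested. In replicates 1 and 2 of 9 dbi, 3 counts would correspond to 0.136 and 0.137 CPM.

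**Figure D5:**
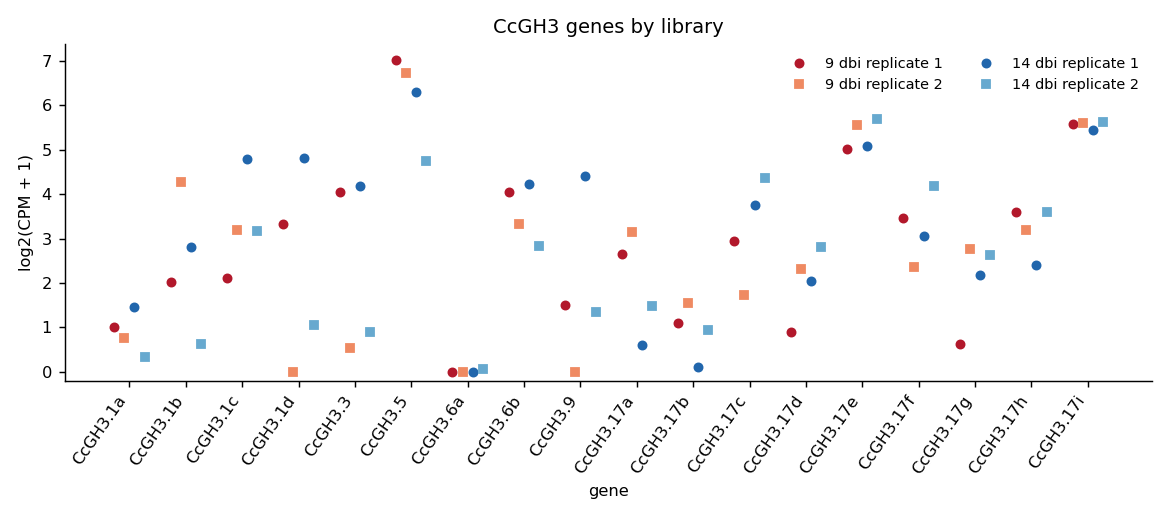
Level of the 18 CcGH3 genes (x axis) as log2(CPM + 1) (y axis) in the 2 libraries of 9 dbi (red) and the 2 of 14 dbi (blue). CcGH3.5 has the most reads at 9 dbi, CcGH3.17i has 4 nearly equal values, and in CcGH3.3 and CcGH3.1d replicate 1 (circles) lies above replicate 2 (squares) in both groups.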

How the data were processed

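The authors deposited 1 count file per library, with whole-number read counts (not normalized) for 25574 genes and 5 further rows of unassigned reads. These rows were left out of library sizes and tests. Reads in genes were 50.4% and 52.8% of all counted reads at 9 dbi, and 40.0% and 59.0% at 14 dbi. The submitters' notes name FastQC 0.11.5, cutadapt 1.14 and HTSeq 0.10.0. For the aligner, the strand setting and the build, nothing is stated (not given in the sources used here). All IDs matched locus tags of the AUK_PRJEB4211_v1 annotation, which served only for neighbouring genes.

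All 12 libraries entered 1 edgeR 4.0.16 quasi-likelihood fit (R 4.3.3, limma 3.58.1) with time point as the only factor, after filterByExpr by time point and TMM scaling. The study's methods state no test for the RNA-seq counts. Genes were called at a Benjamini-Hochberg adjusted p under 0.05. SE was computed from the fold change and F. A lost gene had no read at 9 dbi and reads in both 14 dbi libraries, and a gained gene the reverse. Expected values at equal depth were hypergeometric. Bounds and floors use 3 counts and cover counting error only, since PCR copies are not independent molecules. The steps were tested on simulated counts.

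Named were the *CcGH3* genes, up to 15 genes called in each direction with the largest fold change and no overlap, and the 5 lost and 5 gained genes of highest level. Members and lists were chosen with earlier results of these data known. In all, 8 called lower genes with reads at 9 dbi and a few genes singled out were added after the values were seen. Lists of pathways, cell type markers and dividing cells were not applied, because the sources used here do not pair IDs with descriptions. Alternatives were DESeq2 1.42.0, other scalings and filters, a replicate block, a term for low mapping quality (over 15%), thinning to equal depth, each library left out, the 4 libraries alone, and, added after seeing the data, the 8 libraries with little low mapping quality.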

Additional observations from a re-analysis of the deposited data

How the results depend on the processing

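Beside the 111 calls reported (7 higher, 104 lower), edgeR called 54 genes with RLE size factors (4 higher, 50 lower), 226 with no filter (17 and 209), 20 with at least 10 counts in each of the 4 libraries (3 and 17), 28 after thinning to equal depth (3 and 25), and 17 with a term for low mapping quality (1 and 16). With library size alone it called 99. With only the 4 libraries it called 0 (0 and 0), with 1743 genes at an unadjusted p under 0.05, and with the 8 libraries of little low mapping quality, a fit added once the data had been seen, also 0 (0 and 0), with 1411. In that fit, and where a 9 dbi or 14 dbi library was left out, the lone library was assumed to vary like the other groups. DESeq2 called 1579 (285 higher, 1294 lower), among them all 111. With a replicate block 17 genes were called (1 higher, 16 lower), of which 15 were among the 111. The replicate numbers were not taken to pair the samples: of 15 correlations of deviations between time points 5 were over 0.1, and that of 9 and 14 dbi was −0.03. The 5, from 0.25 to 0.39, lay among 14 dbi, 0 dbi, 2 dai and 21 dai, where the number goes with a library trait: replicate 1 had 17.6% to 20.3% of reads of low mapping quality and replicate 2 had 11.2% to 12.7%. Leaving out 1 library at a time gave 0 to 686 calls (0 to 57 higher, 0 to 629 lower). The lowest counts came without replicate 1 of 1 dai and without either library of 2 dai, with 0 calls each and 3266, 2852 and 2857 genes at an unadjusted p under 0.05. They were 3 without replicate 2 of 1 dai, 5 without either library of 21 dai, and 238 and 232 without replicate 1 or 2 of 0 dbi. The cause of these moves was not tested. The median log2 fold change of all genes was −0.12 with TMM, −0.07 with RLE and −0.05 with library size alone.

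Lost genes numbered 569 with at least 10 reads in both 14 dbi libraries, 3235 with reads in either, and 2156 to 3329 with 1 of the 4 libraries left out. Gained genes numbered 1 with at least 10 reads, 107 with reads in either library, and 16 to 108 with 1 library left out. Fewer libraries ask for fewer zeros, so the numbers rise by construction.

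Some log2 fold changes of uncalled *CcGH3* genes changed sign. With a term for low mapping quality *CcGH3.1b* stood at −0.11, *CcGH3.1d* at 1.02, *CcGH3.3* at 2.13 and *CcGH3.17h* at −0.17. With the 8 libraries *CcGH3.1a* stood at 1.72, *CcGH3.1d* at 2.06, *CcGH3.3* at 3.21, *CcGH3.17h* at −0.22 and *CcGH3.17i* at −0.035. With library size alone *CcGH3.3* stood at 0.078, and after thinning *CcGH3.6b* stood at −0.012. With 1 library left out at a time the values ran from −1.05 to 1.71 for *CcGH3.1a*, −0.067 to 4.28 for *CcGH3.1b*, −11.34 to 2.06 for *CcGH3.1d*, −4.28 to 3.21 for *CcGH3.3*, −0.53 to 0.99 for *CcGH3.6b*. They ran from −0.42 to 0.24 for *CcGH3.17e*, −2.99 to 0.41 for *CcGH3.17g*, −0.22 to 1.16 for *CcGH3.17h*, −0.035 to 0.14 for *CcGH3.17i*.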

Other observations

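The lost genes were spread over the genome. On the 11 numbered chromosomes, as the gene IDs give them, 7.24% (chromosome 2) to 10.7% (chromosome 8) of the genes with reads in both 14 dbi libraries had none at 9 dbi. Among the genes on unplaced scaffolds (IDs that start with Cc00) this share was 15.1%, or 319 of 2115 genes. Calls to the lower side were made on every chromosome, from 3 genes on chromosome 10 to 16 on chromosome 2, and on unplaced scaffolds for 10.

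The genes with most reads were largely shared by both groups. Cc00_g15710, Cc00_g14320, Cc02_g07500 and Cc07_g10030 were each among the 5 genes with most reads in at least 1 library of 9 dbi and 1 of 14 dbi. Cc00_g15710 took 0.460% and 1.22% of the reads at 9 dbi, against 1.31% and 0.888% at 14 dbi. The 100 genes with most reads in each library held 15% and 18.5% of its reads at 9 dbi, against 18.9% and 14.6% at 14 dbi, and the groups overlapped.

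At equal depth the low-count share of the 1 dai libraries was 5.85% and 3.63% of the genes detected, near the 3.81% and 3.92% of 9 dbi. In the other 8 libraries it ran from 12.2% to 14.3%, with replicate 1 of 21 dai, which had only 10091539 reads in genes, kept at its own depth. The 4 libraries with few genes of 1 to 10 reads were thus those of 9 dbi and 1 dai, and their part in the calls at 9 dbi was not tested.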
